A study of Mus musculus with 12 samples.

Results

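Notch signalling genes and surface markers of marginal zone B cells were followed through RNA-seq of sorted mouse splenic B cells. The set was the receptors Notch1 and Notch2, the glycosyltransferase Mfng, the DNA-binding partner Rbpj, the pathway genes Dtx1 and Hes1, and the surface molecules Cd9 and Cd1d1. They were chosen by symbol, giving 8 of the 50686 genes in the count tables, and all 8 had enough counts to be tested. The pBIC mice (n = 6) were p53F/F, Blimp1F/F, IKK2castopF/stopF and Cg1Cre/+, and B220+GFP+ cells were sorted from their spleens. The BIC mice (n = 3) were Blimp1F/F, IKK2castopF/stopF and Cg1Cre/+, with the same sort. The YC mice (n = 3), the normal controls, were YFPstopF/+ and Cg1Cre/+, and B220+YFP+ cells were sorted. The labels call BIC and pBIC mouse models of ABC-DLBCL, an aggressive human B cell lymphoma whose cells resemble activated B cells, and they give neither age nor sex. All 3 groups share Cg1Cre, a recombinase that is active in B cells transcribing the IgG1 constant gene, so that every sort takes reporter-positive cells with that history and not all splenic B cells.

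Notch receptors are cleaved when a ligand on a neighbouring cell binds them, and the freed intracellular part joins RBPJ on DNA and turns on target genes. In the mouse spleen, NOTCH2 is required for marginal zone B cells, a population at the border of the white pulp that responds early to blood-borne antigen. Fringe enzymes such as MFNG add sugars to Notch that make it more responsive to Delta-like ligands. Marginal zone B cells carry more CD9, CD1d and CD21 on their surface than follicular B cells, whereas follicular cells carry CD23, the product of Fcer2a.

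Total counts per library ran from 33127283 to 47067627. Levels are given as CPM, counts scaled to a common library total, with TMM factors for library composition. Before these factors, 3 counts correspond to 0.0637 to 0.0906 CPM. The allele checks went with the labels for Trp53, which had 16.2 to 32.0 CPM in pBIC, 72.1 to 209 CPM in BIC and 137 to 147 CPM in YC. Ikbkb, which encodes IKK2, had 453 to 510 CPM in pBIC, 381 to 538 CPM in BIC and 217 to 249 CPM in YC. Prdm1, which encodes Blimp1, overlapped between the groups, with 0.72 to 21.3 CPM in pBIC, 5.33 to 41.1 CPM in BIC and 18.1 to 20.0 CPM in YC. Its counts sum all exons, including any outside the floxed part. Transcripts of Xist, expressed from the inactive X chromosome of females, stood at 1680 to 1828 CPM in BIC and at up to 5.13 CPM in YC. Among the pBIC libraries, 2, 4 and 5 carried Xist, 3 and 6 carried the Y-linked Ddx3y, and library 1 had 2.58 CPM of Xist and 2.60 CPM of Ddx3y. In BIC against YC, genotype and sex-linked expression therefore cannot be told apart. The summed CPM of 10 germinal centre genes was 197 to 439 in pBIC, 182 to 238 in BIC and 1216 to 2163 in YC, so the control sort carried many more germinal centre transcripts. Neutrophil markers summed to 5.83 to 83.1 CPM in pBIC, 64.9 to 1519 CPM in BIC and 2.80 to 284 CPM in YC. The sum over 10 B cell identity genes was 3105 to 9002 CPM in pBIC, 11425 to 11607 CPM in BIC and 10017 to 11694 CPM in YC. In sorted bulk cells, fewer cells of a type and less RNA per cell cannot be told apart, and the part of these lists in the results was not tested.

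Differences were tested with edgeR's quasi-likelihood F test over all 12 libraries, and a gene was called at a Benjamini-Hochberg adjusted p under 0.05 over the 17754 genes tested. In pBIC against BIC, Dtx1 and Cd9 fell and 0 of the 8 rose (0 also at an unadjusted p under 0.05 and by DESeq2 or voom), where 19.7% of all tested genes were called and 8.78% were called lower. In pBIC against YC, Notch2, Dtx1 and Hes1 fell and Cd9 rose, where 22.0% of all tested genes were called. Between BIC and YC, Hes1 was lower and Cd9 higher in BIC, where 8.88% of all tested genes were called. The median log2 fold change of the 8 genes was -0.49 in pBIC against BIC, 0.22 in pBIC against YC and 0.29 in BIC against YC. The medians over all tested genes were 0.09, 0.10 and 0.01 in the same order of comparisons. The comparisons share libraries, so their lists of called genes are not independent of each other. Of these 8 calls, 6 held whichever single library was left out and under every other fit tried. They were the 3 calls of Cd9, the 2 calls of Dtx1, and Hes1 in pBIC against YC. The call of Hes1 in BIC against YC and that of Notch2 in pBIC against YC did not.

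**Figure D1:**
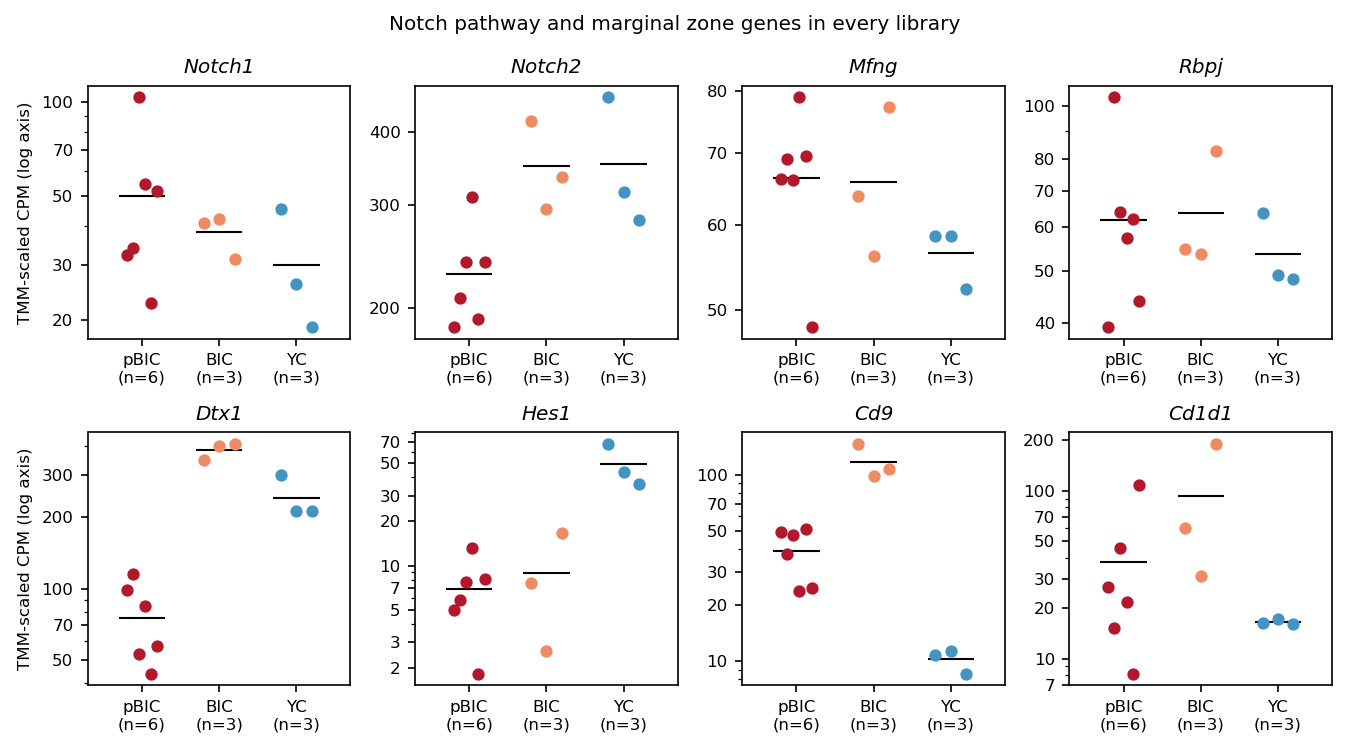
Level of each gene in every library, in TMM-scaled CPM on a log axis that differs between panels; each point is 1 library (pBIC n = 6, BIC n = 3, YC n = 3) and each black line is the group mean. All 6 pBIC libraries sit below all other libraries for Dtx1, and for Cd9 the 3 groups separate with pBIC (23.7 to 51.5 CPM) between BIC and YC.

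The promoters of Dtx1 and Cd9 are shown because these genes were called in pBIC against both other groups. The sequences are RefSeq's on GRCm38.p6, in the gene's orientation, from 250 bases before to 50 bases after the start site. Dtx1 is on the minus strand at chr5:120711620-120711919 and Cd9 on the minus strand at chr6:125494711-125495010. Capitals mark matches to TGGGAA, the core of the sequence that RBPJ binds, and to a form of the NF-kB motif (GGG, 2 bases of any kind, then TTTCC), on either strand.
Dtx1: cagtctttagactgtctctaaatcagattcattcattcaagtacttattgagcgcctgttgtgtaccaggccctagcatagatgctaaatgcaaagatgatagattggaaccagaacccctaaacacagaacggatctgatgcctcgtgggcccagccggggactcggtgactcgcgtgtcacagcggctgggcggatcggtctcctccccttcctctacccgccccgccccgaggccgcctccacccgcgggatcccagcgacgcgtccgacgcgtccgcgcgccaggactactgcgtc
Cd9: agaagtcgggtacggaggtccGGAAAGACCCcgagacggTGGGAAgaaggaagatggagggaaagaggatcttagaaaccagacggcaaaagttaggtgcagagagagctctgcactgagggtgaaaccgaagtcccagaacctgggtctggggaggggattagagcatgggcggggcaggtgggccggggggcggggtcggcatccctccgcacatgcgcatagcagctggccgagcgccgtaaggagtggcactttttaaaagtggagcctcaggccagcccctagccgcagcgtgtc
The Cd9 window held TGGGAA at position -211 from the start site and, on the other strand, an NF-kB match read as GGAAAGACCC at position -229. These matches do not overlap. The Dtx1 window held neither motif. Among 32851 RefSeq promoter windows of 300 bases, 25.6% held TGGGAA and 1.63% held this NF-kB form on either strand, so the first is common in windows of this length. The windows found for Notch1 and Notch2 held neither motif, and those of Rbpj held the first. Hes1, Mfng and Cd1d1 had no entry in the promoter table.

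Notch2 (ENSMUSG00000027878.11, GRCm38 chromosome 3, 98013527 to 98150361, plus strand), the receptor that marginal zone cells need, was the more highly counted receptor. It had 186, 208, 240, 309, 192 and 240 CPM in pBIC libraries 1 to 6, against 418, 295 and 335 CPM in BIC and 458, 315 and 283 CPM in YC. Of the pBIC libraries only pBIC 4, at 309 CPM, reached into the range of either other group. The means were 229 ± 45.4 CPM in pBIC (SD, n = 6), 349 ± 62.3 CPM in BIC (SD, n = 3) and 352 ± 92.9 CPM in YC (SD, n = 3). Against YC, Notch2 fell in pBIC by edgeR, with a log2 fold change of -0.62 ± 0.20 (SE) and an adjusted p of 0.0476. This call was lost in 11 of the 12 fits that left out 1 library, with adjusted p up to 0.259, and was kept without pBIC 4. The size against BIC was the same to 1 decimal (-0.61 ± 0.20), but with an edgeR adjusted p of 0.0553 it was not called. The comparison of BIC with YC was not called either (-0.01 ± 0.24, edgeR adjusted p = 0.984).

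Notch1 (ENSMUSG00000026923.15, chromosome 2, 26457903 to 26516663, minus strand) encodes the receptor best known for its role in T cell development. It had 32.4, 34.1, 103, 54.5, 22.8 and 51.9 CPM in pBIC 1 to 6, against 40.9, 42.3 and 31.4 CPM in BIC and 45.3, 26.1 and 19.0 CPM in YC. The groups overlapped, and pBIC 3 stood above all other libraries. No comparison was called for Notch1, with log2 fold changes of 0.38 ± 0.43 in pBIC against BIC (edgeR adjusted p = 0.561), 0.72 ± 0.43 in pBIC against YC (0.25) and 0.34 ± 0.49 in BIC against YC (0.705). Per kilobase of exon, the ratio of the Notch2 level to the Notch1 level ranged from 3.07 to 11.1 in pBIC (median 7.53), from 9.22 to 14.1 in BIC (median 13.5) and from 13.3 to 19.7 in YC (median 15.9). The ratio was below every YC library in all pBIC libraries, while pBIC and BIC overlapped. It was computed after the values had been seen and was not tested. T cells also use Notch1. The summed CPM of 11 T cell genes was 79.2 to 193 in pBIC, 267 to 432 in BIC and 162 to 193 in YC. Most of this sum was Cd2 in every library, so it mainly follows that gene. Cd2 had 55.2 to 167 CPM in pBIC, 170 to 286 CPM in BIC and 143 to 151 CPM in YC. Cd3d and Cd3e each had at most 4.05 CPM in pBIC, 5.69 CPM in BIC and 1.67 CPM in YC. Of the 11 genes, edgeR called only Cd3g higher in BIC than in YC, and 3 lower in pBIC than in BIC. The part of T cells in the Notch1 levels was not tested. An antisense transcript, 0610009E02Rik, shares 7.5% of the Notch1 exon bases, and reads in such overlaps were not assigned.

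Mfng (ENSMUSG00000018169.12, chromosome 15, 78755882 to 78773475, minus strand) encodes a Fringe enzyme that modifies Notch receptors. It ranged from 48.3 to 78.9 CPM in pBIC (median 67.7), from 56.2 to 77.3 CPM in BIC (median 63.9) and from 52.3 to 58.6 CPM in YC (median 58.6). The groups overlapped in every comparison. The log2 fold change was 0.01 ± 0.16 in pBIC against BIC, 0.23 ± 0.16 in pBIC against YC and 0.22 ± 0.19 in BIC against YC, with edgeR adjusted p of 0.968, 0.331 and 0.499, so none was called. The sign against BIC turned under some alternatives. Rbpj (ENSMUSG00000039191.12, chromosome 5, 53466152 to 53657362, plus strand) encodes the protein through which Notch reaches DNA. It ranged from 39.4 to 104 CPM in pBIC (median 59.7), from 53.6 to 82.9 CPM in BIC (median 54.8) and from 48.2 to 63.8 CPM in YC (median 49.1). Both the lowest and the highest of the 12 libraries were pBIC. Rbpj was called in no comparison, at -0.05 ± 0.28 in pBIC against BIC, 0.20 ± 0.28 in pBIC against YC and 0.25 ± 0.32 in BIC against YC (edgeR adjusted p = 0.929, 0.638 and 0.673). Its sign changed in each comparison when Xist expression was a term of the fit.

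Dtx1 (ENSMUSG00000029603.15, chromosome 5, 120680202 to 120711927, minus strand) encodes Deltex1, a ubiquitin ligase whose gene is a Notch target and which is abundant in marginal zone B cells. It had 98.7, 115, 53.2, 84.5, 43.9 and 57.3 CPM in pBIC 1 to 6, against 348, 399 and 406 CPM in BIC and 300, 212 and 213 CPM in YC. Every pBIC library was below every BIC and every YC library, and every BIC library was above every YC library. The means were 75.5 ± 28.4 CPM in pBIC (SD, n = 6), 384 ± 31.9 CPM in BIC (SD, n = 3) and 242 ± 50.3 CPM in YC (SD, n = 3). Dtx1 fell in pBIC against BIC (-2.35 ± 0.27 on the log2 scale, edgeR adjusted p = 0.000735) and in pBIC against YC (-1.68 ± 0.27, edgeR adjusted p = 0.00173). On the linear scale these are 5.09-fold and 3.20-fold lower levels. For BIC against YC the difference of 0.67 ± 0.33 was not called (edgeR adjusted p = 0.227), although the libraries did not overlap. With 3 libraries in each group, 45.2% of all tested genes also had no overlap in that comparison. It was called when only these 2 groups entered the fit (0.69, edgeR adjusted p = 0.0238). Among libraries with Xist only (pBIC 2, 4 and 5 against BIC), Dtx1 was lower by a log2 fold change of -2.24 (edgeR adjusted p = 0.00896). Among libraries with Y-linked transcripts only (pBIC 3 and 6 against YC) it was -2.11 (edgeR adjusted p = 0.00832).

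Hes1 (ENSMUSG00000022528.7, chromosome 16, 30064384 to 30067796, plus strand), a transcriptional repressor and a classical Notch target, showed another order of the groups. It had 5.0, 5.84, 7.73, 13.2, 1.83 and 8.07 CPM in pBIC 1 to 6, against 7.63, 2.59 and 16.6 CPM in BIC and 67.7, 43.7 and 36.3 CPM in YC. All pBIC and all BIC libraries were below all YC libraries, and pBIC and BIC overlapped throughout. Hes1 fell in pBIC against YC (-2.83 ± 0.56, edgeR adjusted p = 0.00438) and in BIC against YC (-2.46 ± 0.70, edgeR adjusted p = 0.0487), which are 7.09-fold and 5.50-fold lower levels. The BIC call was lost in 9 of the 12 fits without 1 library (adjusted p up to 0.155), all but those without BIC 3, pBIC 4 or pBIC 5. In pBIC against BIC the difference was -0.37 ± 0.57 (edgeR adjusted p = 0.69), and without BIC 3 it was 0.40. The SD of log2 CPM for Hes1 was 0.95 in pBIC, 1.34 in BIC and 0.46 in YC. Dtx1 and Hes1, both known as Notch targets, thus had different lowest groups: pBIC alone for Dtx1, and pBIC with BIC for Hes1.

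Cd9 (ENSMUSG00000030342.8, chromosome 6, 125460266 to 125494791, minus strand) encodes a tetraspanin found on marginal zone B cells, B-1 cells, plasma cells and platelets. It had 49.4, 37.6, 47.7, 23.7, 51.5 and 24.8 CPM in pBIC 1 to 6, against 146, 98.5 and 107 CPM in BIC and 10.8, 11.3 and 8.58 CPM in YC. The 3 groups did not overlap, with pBIC between the other groups. The means were 39.1 ± 12.5 CPM in pBIC (SD, n = 6), 117 ± 25.6 CPM in BIC (SD, n = 3) and 10.2 ± 1.46 CPM in YC (SD, n = 3). Cd9 fell in pBIC against BIC (-1.59 ± 0.26, edgeR adjusted p = 0.00242). It rose in pBIC against YC (1.93 ± 0.30, edgeR adjusted p = 0.00126) and in BIC against YC (3.52 ± 0.34, edgeR adjusted p = 0.00106), levels 3.82-fold and 11.5-fold higher than in YC. Among libraries with Xist only, pBIC against BIC gave -1.64 (edgeR adjusted p = 0.0142), and among libraries with Y-linked transcripts only, pBIC against YC gave 1.85 (edgeR adjusted p = 0.0223). The summed CPM of 7 B-1 cell genes had the same order of groups as Cd9. The sum was 936 to 1492 in pBIC, 2845 to 3264 in BIC and 510 to 733 in YC. Ahnak was the largest part of it in every library, so the sum mainly follows that gene. Ahnak had 414 to 824 CPM in pBIC, 1770 to 2104 CPM in BIC and 370 to 539 CPM in YC. Plasma cell genes, by contrast, summed to 504 to 1406, 556 to 1477 and 1884 to 2191 CPM in the same groups. Summed platelet and megakaryocyte markers were 22.9 to 112 CPM in pBIC, 23.4 to 55.8 CPM in BIC and 51.8 to 64.7 CPM in YC, with Pf4 at 1.36 CPM or less. Of the 8 markers tested, edgeR called only Ppbp, lower in pBIC than in BIC, whereas DESeq2 called 3 lower and 1 higher in that comparison and Ppbp higher in BIC than in YC. With the replicate number as a block, edgeR called 0 of the 8. The part of any of these cells in the Cd9 levels was not tested. An antisense transcript, Gm26728, shares 10.7% of the Cd9 exon bases.

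Cd1d1 (ENSMUSG00000028076.12, chromosome 3, 86995834 to 86999441, minus strand) encodes CD1d, which presents lipids to natural killer T cells. It had 26.7, 15.1, 45.9, 21.7, 8.15 and 108 CPM in pBIC 1 to 6, against 59.8, 31.1 and 191 CPM in BIC and 16.2, 17.2 and 16.1 CPM in YC. The YC libraries were nearly equal, whereas pBIC 6 and BIC 3 stood far above the rest of their groups. The BIC libraries did not overlap YC, and pBIC overlapped both. No comparison was called, at -1.32 ± 0.69 in pBIC against BIC (edgeR adjusted p = 0.2), 1.19 ± 0.76 in pBIC against YC (0.284) and 2.51 ± 0.88 in BIC against YC (0.0974). Without pBIC 6, Cd1d1 was called lower in pBIC than in BIC (-2.01, edgeR adjusted p = 0.0295) and higher in BIC than in YC (edgeR adjusted p = 0.0404). Reads that fit equally well to the related gene Cd1d2 were not counted for either gene. Cd1d2 itself reached at most 2.25 CPM, in pBIC 6, with 1.95 CPM in BIC 3.

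**Figure D2:**
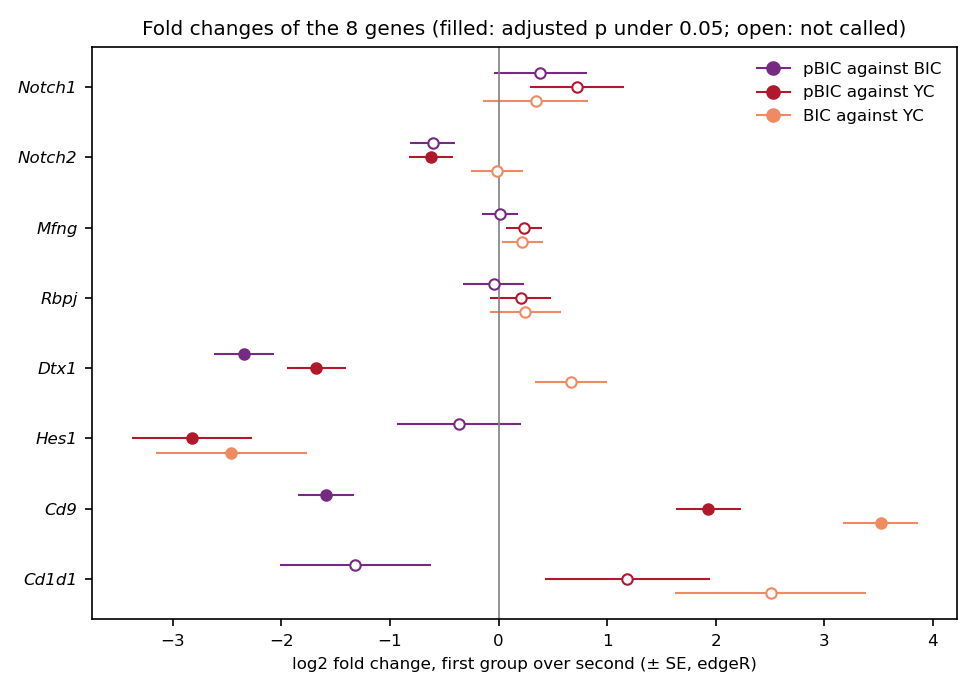
Log2 fold change of each gene in each comparison (horizontal axis, first-named group over second) with its SE from edgeR; filled circles passed at an adjusted p under 0.05. Cd9 is filled in all 3 comparisons, on the left for pBIC against BIC and on the right for both comparisons with YC, and Dtx1 is filled on the left in both pBIC comparisons.

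Without overlap between their libraries were 2 of the 8 genes in pBIC against BIC, 3 in pBIC against YC and 4 in BIC against YC. The same was true of 21.6%, 26.1% and 45.2% of all tested genes. Per kilobase of exon, Dtx1 had the highest mean of the 8 genes in BIC (72.9 ± 6.04 CPM per kb, SD, n = 3) and in YC (45.8 ± 9.54, n = 3). In pBIC the mean of Dtx1 was 14.3 ± 5.40 CPM per kb (SD, n = 6) and ranked below Mfng (23.4 ± 3.53), Notch2 (21.3 ± 4.21), Cd9 (19.1 ± 6.09) and Cd1d1 (14.6 ± 14.3), neighbours whose means lay within each other's SD. Hes1 ranked after Dtx1 and Notch2 in YC, at 24.2 ± 8.06 CPM per kb, whereas in pBIC it had 3.41 ± 1.87 and in BIC 4.39 ± 3.49 CPM per kb. Rbpj and Notch1 stayed at 5.0 CPM per kb or less on average in every group.

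Wider lists of the pathway held 57 genes, of which 55 were tested, Dll3 and Ptcra being too low. Of the 55, 4 rose and 5 fell in pBIC against BIC, 3 rose and 14 fell in pBIC against YC, and 1 rose and 3 fell in BIC against YC. Over all tested genes, 10.9% rose and 8.78% fell in pBIC against BIC, 11.8% and 10.2% in pBIC against YC, and 3.90% and 4.97% in BIC against YC. The median log2 fold changes of the list were -0.25, -0.16 and 0.04 in that order, beside 0.09, 0.10 and 0.01 over all tested genes. Of these calls, 1 of 9, 4 of 17 and 1 of 4 held whichever single library was left out. They were Dtx1 in pBIC against BIC, then Cr2, Dtx1, Hes1 and Mib1 in pBIC against YC, and Nrarp in BIC against YC.

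Ligand transcripts were scarce in these cells, with a sum of 2.23 to 10.1 CPM in pBIC, 2.05 to 3.60 CPM in BIC and 8.93 to 18.2 CPM in YC. Dll1, the Delta-like ligand that marginal zone development depends on in the mouse spleen, had 0.0926 to 3.45 CPM in pBIC, 0.174 to 0.572 CPM in BIC and 5.81 to 11.9 CPM in YC. It fell in pBIC against YC (-3.08 ± 0.85, edgeR adjusted p = 0.0231) and in BIC against YC (-4.67 ± 1.19, edgeR adjusted p = 0.0323), and both calls were lost without any one of the YC libraries, the BIC call also without any one of the BIC libraries. Dll4, another Delta-like ligand, was called higher in pBIC than in BIC (4.0 ± 1.27, edgeR adjusted p = 0.0451), where pBIC 5 had 5.14 CPM, the other pBIC libraries had 0.173 to 0.939 CPM and BIC had at most 0.131 CPM. That call was lost in 6 of the 12 fits without 1 library, among them those without pBIC 5 and without any one of the BIC libraries. It was kept in 2 of the 7 other fits. Among the receptors, Notch3 was also called higher in pBIC than in BIC (4.18 ± 1.20, edgeR adjusted p = 0.0307), at 0.306 to 5.22 CPM in pBIC against at most 0.131 CPM in BIC. Its call was lost without any one of the BIC libraries.

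Of 15 genes for glycosylation and cleavage of Notch, Furin, a protease that matures the receptors, fell in pBIC against BIC (-0.64 ± 0.20, edgeR adjusted p = 0.045). This call was lost in 10 of the 12 fits without 1 library (edgeR adjusted p up to 0.2) and kept in 4 of the 8 other fits. Psen2, a catalytic subunit of gamma-secretase, fell in pBIC against YC (-0.75 ± 0.21, edgeR adjusted p = 0.0235), a call lost without any one of the YC libraries. Between BIC and YC, 0 of the 15 were called by edgeR, DESeq2 or voom, and 1 had an unadjusted edgeR p under 0.05. Of 12 genes for trafficking and ubiquitination, 4 fell in pBIC against BIC, among them Dtx4 (-1.15 ± 0.27, edgeR adjusted p = 0.0124), a relative of Dtx1, and Fbxw7 (-0.57 ± 0.16, edgeR adjusted p = 0.0293), which marks the Notch intracellular part for destruction. In pBIC against YC, 2 rose and 4 fell. The risers were Mib1, a ligase that Notch ligands need in the cells that send the signal (1.37 ± 0.26, edgeR adjusted p = 0.00333), and Dtx2 (1.07 ± 0.26, edgeR adjusted p = 0.0128), and Fbxw7 fell (-0.67 ± 0.16, edgeR adjusted p = 0.0117). Mib1 stood at 60.4 to 118 CPM in all pBIC libraries, against 35.8 to 37.1 CPM in YC. Dtx1 and Dtx2 thus moved in opposite directions in pBIC against YC.

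Of 12 genes of the nuclear complex, 4 fell in pBIC against YC, namely the acetyltransferases Crebbp (-0.88 ± 0.23, edgeR adjusted p = 0.0158), Kat2b (-0.75 ± 0.21, edgeR adjusted p = 0.0221) and Ep300, and the coactivator Maml1. In BIC against YC, the corepressor Tle3 rose (1.54 ± 0.32, edgeR adjusted p = 0.0143). Among 10 target genes tested, Nrarp, a feedback inhibitor of Notch, had 0.281 to 0.765 CPM in pBIC, 0.0545 to 0.109 CPM in BIC and 0.702 to 3.15 CPM in YC. It fell in BIC against YC (-4.43 ± 0.72, edgeR adjusted p = 0.00475) and in pBIC against YC (-1.68 ± 0.50, edgeR adjusted p = 0.032). Nrarp rose in pBIC against BIC (2.75 ± 0.64, edgeR adjusted p = 0.0124), the opposite of Dtx1, although its BIC libraries hold only a few counts each. That rise was not called without BIC 2, without BIC 3 or with voom. The call in pBIC against YC was lost in 4 of the 12 fits without 1 library (edgeR adjusted p up to 0.312). It was kept in 2 of the 8 other fits. With a term for Xist expression the call in BIC against YC was lost (edgeR adjusted p = 0.0526). Myc, which many signals besides Notch control, rose in pBIC against BIC (1.51 ± 0.43, edgeR adjusted p = 0.0299). The Myc call was lost without BIC 1 or BIC 2 and kept in 3 of the 8 other fits. Heyl had no counts in any YC library and was called higher in pBIC, by at least 52.0-fold against a floor of 3 counts over the YC group. Most of that came from pBIC 3, at 6.52 CPM, and the other pBIC libraries had 0.0432 to 1.18 CPM.

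**Figure D3:**
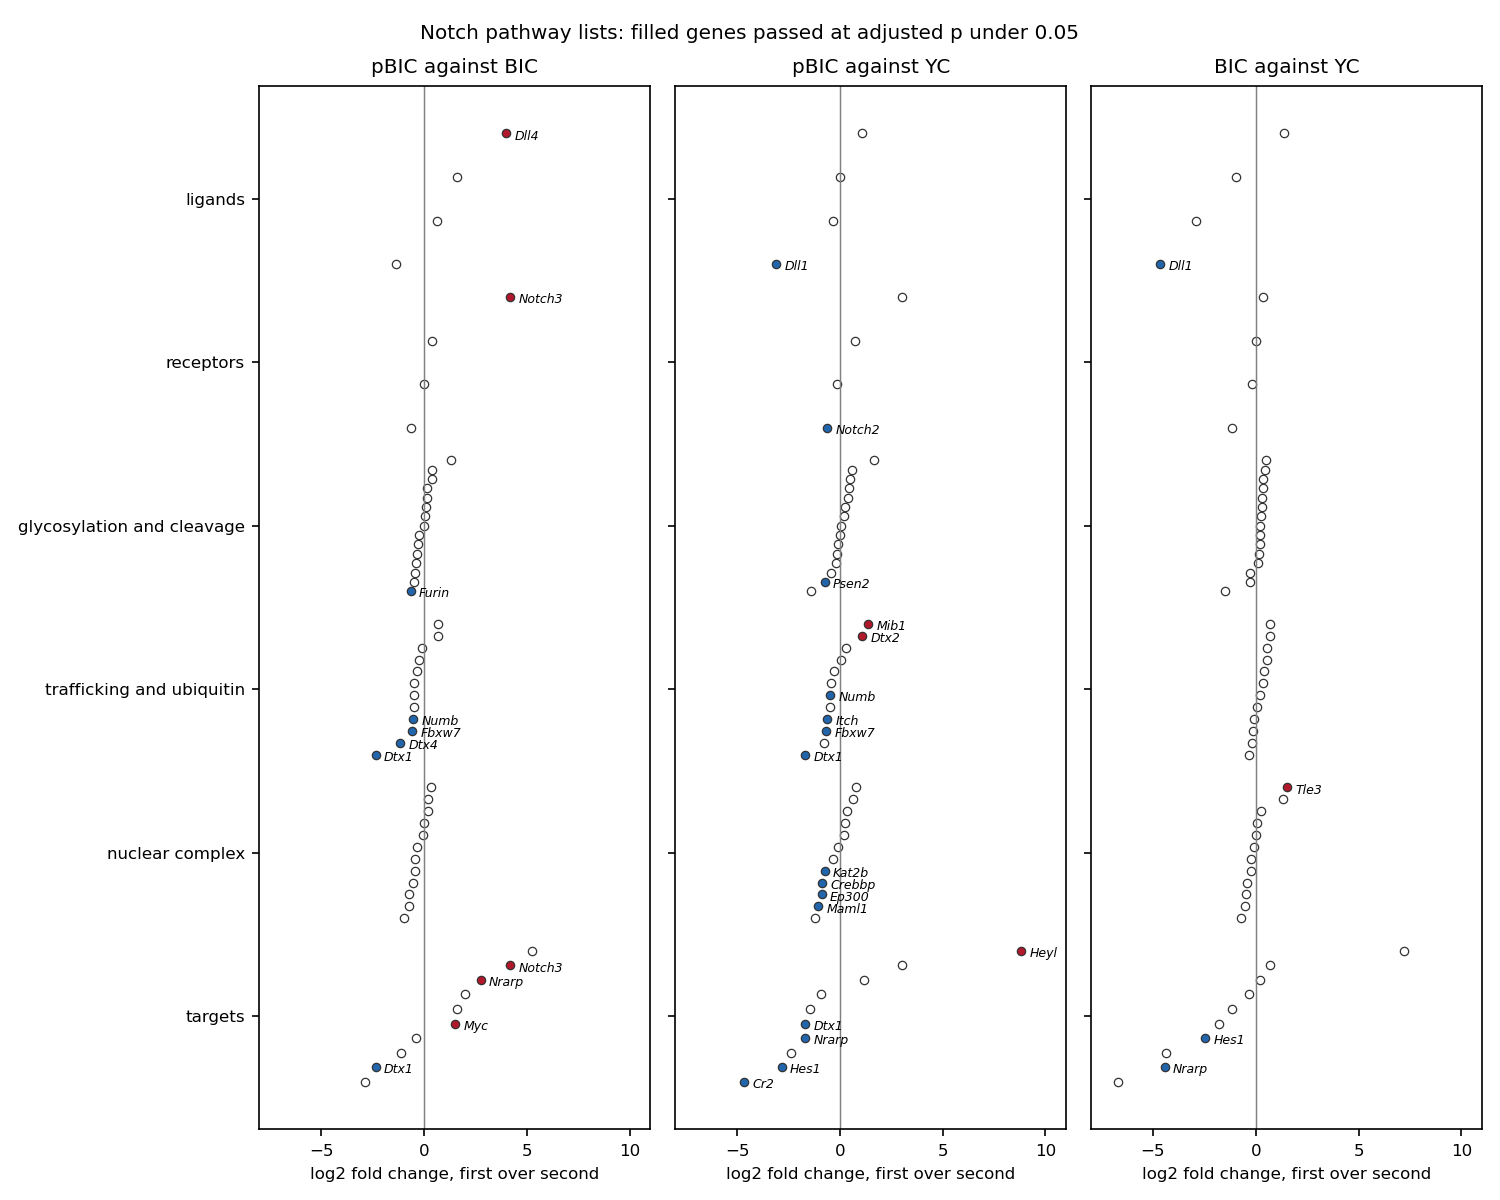
Log2 fold change (horizontal axis, first-named group over second) of every tested gene of 6 Notch pathway lists (rows; genes of a list are spread vertically in order of fold change), with called genes filled and named. In pBIC against YC 14 filled genes lie left of 0 and 3 right of it; the fitted value of Heyl there has no counts in YC behind it and is no measure of size, and Dtx1 and Notch3 appear in both of the lists that hold them.

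Of the 15 marginal zone genes, which include Cd9, Cd1d1 and Dtx1, 6 fell and 0 rose in pBIC against BIC by edgeR. The number that rose was also 0 at an unadjusted p under 0.05 and by DESeq2 or voom. Of all tested genes, 8.78% fell and 10.9% rose in that comparison. Beside Dtx1 and Cd9, Fcrl5, an inhibitory receptor-like molecule of marginal zone and B-1 cells, fell (-2.15 ± 0.50, edgeR adjusted p = 0.0126), as did S1pr3, a receptor for sphingosine 1-phosphate (-2.72 ± 0.64, edgeR adjusted p = 0.0126). Fcrl5 had 26.7 to 262 CPM in pBIC, against 565 to 840 CPM in BIC and 47.1 to 62.5 CPM in YC. S1pr3 had 3.42 to 51.9 CPM in pBIC, against 119 to 182 CPM in BIC and 62.3 to 79.3 CPM in YC. Without BIC 1 the calls of Fcrl5 (adjusted p = 0.0601), S1pr3 (0.0511) and Ptk2b were lost, leaving 3. With the replicate number as a block, 2 of the 15 were called lower, Cd9 and Dtx1, and 1 was called higher. The median of the 15 in pBIC against BIC was -0.996, beside 0.09 over all tested genes. The fall was not particular to marginal zone genes. Of the 10 B cell identity genes, 6 fell and 0 rose in the same comparison by edgeR, with a median of -1.12. How far the falls of these lists are linked was not tested.

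In pBIC against YC, 3 of the 15 rose and 3 fell, with a median of 0.48, where 11.8% of all tested genes rose and 10.2% fell. Cd9 and Plac8, a small cysteine-rich protein of unsettled function, rose (Plac8 2.16 ± 0.42, edgeR adjusted p = 0.00423). Dtx1 and the tyrosine kinase gene Ptk2b, which marginal zone B cells need in the mouse, fell (Ptk2b -3.13 ± 0.29, edgeR adjusted p = 8.15e-05). In BIC against YC, 3 rose and 1 fell, with a median of 1.12, where 3.90% of all tested genes rose and 4.97% fell. Fcrl5 (3.59 ± 0.67, edgeR adjusted p = 0.00822), Plac8 (2.41 ± 0.46, edgeR adjusted p = 0.00917) and Cd9 rose, and Ptk2b fell (-2.14 ± 0.36, edgeR adjusted p = 0.00509). With a term for Xist expression the call of Plac8 in BIC against YC was lost (adjusted p = 0.129). Ptk2b was thus low in both models, at 44.6 to 110 CPM in pBIC and 139 to 149 CPM in BIC, against 601 to 660 CPM in YC. Cr2, a Notch target that encodes CD21, had 44.1, 4.84, 13.7, 36.4, 0.694 and 33.3 CPM in pBIC 1 to 6, against 15.1, 31.0 and 440 CPM in BIC and 453, 625 and 617 CPM in YC. BIC 3 alone stood near the YC range, and it was also the BIC library with the most Cd1d1 and Hes1. Cr2 fell in pBIC against YC (-4.67 ± 1.10, edgeR adjusted p = 0.011; lost by DESeq2 and with the Xist term, adjusted p up to 0.0527) and was called in neither comparison with BIC (adjusted p = 0.0752 in pBIC against BIC and 0.415 in BIC against YC). The surface markers of marginal zone cells did not move as one: each pBIC and BIC library was above every YC library for Cd9 and below every YC library for Cr2.

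Of 11 follicular genes, 2 fell in pBIC against BIC, 7 fell in pBIC against YC and 4 fell in BIC against YC. The shares of all tested genes called lower were 8.78%, 10.2% and 4.97% in the same order. Of the follicular calls, 1 of 2, 4 of 7 and 2 of 4 held whichever single library was left out. Without YC 2 the fall in pBIC against YC was called for 4 genes, losing Foxo1, Bach2 and Ccr7, and without BIC 1 that in BIC against YC was called for 2, losing Fcer2a and Ccr7. The call of Satb1 in pBIC against BIC was lost in 10 of the 12 fits without 1 library, leaving Il4ra. The number that rose was 0 in each comparison by edgeR, also at an unadjusted p under 0.05 and by DESeq2 or voom. Fcer2a, which encodes CD23, had 1.34 to 41.6 CPM in pBIC and 3.73 to 25.2 CPM in BIC, against 557 to 675 CPM in YC. It fell in pBIC against YC (-5.57 ± 0.91, edgeR adjusted p = 0.00172) and in BIC against YC (-5.80 ± 1.24, edgeR adjusted p = 0.0153). The BIC call of Fcer2a was lost without BIC 1 or BIC 2 (adjusted p up to 0.0688), with no expression filter and with a term for Xist expression (up to 0.0915). Ighd, the heavy chain constant gene of IgD, fell in pBIC against YC (-4.38 ± 0.43, edgeR adjusted p = 0.000129) and in BIC against YC (-3.17 ± 0.54, edgeR adjusted p = 0.00559). Il4ra, a subunit of the interleukin 4 receptor, fell in pBIC against BIC (-1.82 ± 0.30, edgeR adjusted p = 0.00269) and in pBIC against YC (-2.05 ± 0.30, edgeR adjusted p = 0.00103). Summed over the list, follicular genes had 647 to 1783 CPM in pBIC, 1674 to 2049 CPM in BIC and 3877 to 5604 CPM in YC, so the models did not overlap the controls. Marginal zone genes summed to 1345 to 2763 CPM in pBIC, 3188 to 3908 CPM in BIC and 2246 to 2434 CPM in YC, an order in which BIC stood above both other groups. This sum mixes genes that ran in opposite directions. Ptk2b and Cr2 were its largest parts in each YC library, whereas Fcrl5 and Plac8 were higher in each BIC library than in any YC library.

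**Figure D4:**
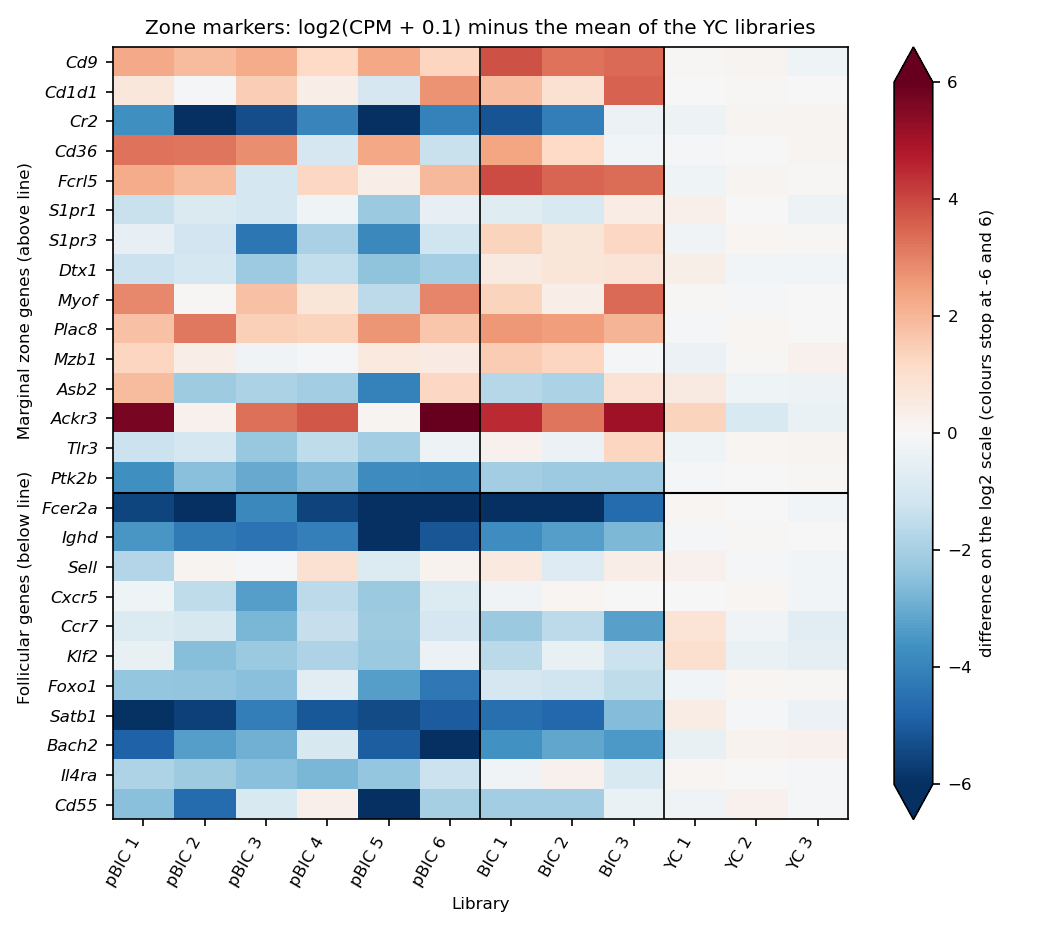
Difference of log2(CPM + 0.1) from the mean of the 3 YC libraries for 15 marginal zone genes (above the horizontal line) and 11 follicular genes (below it), 1 column per library, pBIC left, BIC middle, YC right; red is higher and blue lower than the YC mean. Cd9 is red in all 9 columns of pBIC and BIC, Dtx1 is blue in all pBIC columns and pale red in BIC, and Fcer2a, Ighd and Satb1 are blue in all 9.

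The genes whose levels followed each member most closely were taken as the 3 with the highest Pearson correlation of log2 CPM over the 12 libraries, among 9469 genes that averaged 5 CPM or more. The libraries share 3 group levels, so such a correlation largely describes the order of the groups. For Dtx1 they were Ephx1 (r = 0.980), Suox (0.968) and Fcmr (0.958), and for Cd9 they were Cyb561a3 (0.951), Lysmd2 (0.949) and Trappc4 (0.948). Ephx1 averaged 10.04 CPM in pBIC, 101 CPM in BIC and 71.4 CPM in YC. For Hes1 they were Rasa2 (0.933), Smad7 (0.925) and Stat5b (0.923), for Cd1d1 Hspa12a (0.919), Esyt1 (0.896) and Scd1 (0.875), and for Notch2 Zfyve27 (0.903), Cyb561d1 (0.900) and Ahdc1 (0.898). Those of Notch1 reached at most 0.823, with Cdc42ep4. Among the 8 genes themselves the highest correlation over the 12 libraries was 0.737, of Notch2 with Dtx1, followed by 0.638 for Notch2 with Hes1. Hes1 and Cd9 ran against each other at -0.702, and Dtx1 and Hes1 had 0.408.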

How the data were processed

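Poly(A) RNA of B220-positive, reporter-positive splenic cells was sequenced as read pairs, per the labels' protocols. Each library has 1 deposited table of whole-number counts, which the authors made with featureCounts 1.5.0 over exons of GENCODE M13 on GRCm38, per the file headers. No paired-end, strand or multi-mapping option was set, so mates were counted separately, antisense partners cannot be told apart, and reads that fit several places or several genes are missing. The submitters' processing notes also name STAR, edgeR and limma; for the aligner, settings are not given in these sources. The header of YC 1 names its folder in another pattern than the rest, with the same settings.

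Gene symbols came from GENCODE M21, which named 50462 of 50686 identifiers. Groups came from the sample titles. The test was that of edgeR 4.0.16 under R 4.3.3 (TMM factors, default filter with a minimum count of 10, robust quasi-likelihood fit, all 12 libraries, 1 coefficient per group). SE is the size of the log2 fold change over the square root of its F, and restates the test. DESeq2 1.42.0 and limma 3.58.1 voom were alternatives. The code was tested on simulated data. The 8 genes and all gene lists were chosen with earlier results of these data known. Genes named from a pathway, marginal zone or follicular list are up to 4 in order of p per comparison, with up to 2 in each direction, or all of a list with 5 or fewer calls. One gene of the nuclear complex list enters the list counts but its own values are not reported here. Counts carry counting error only in their limits, since PCR copies were not told apart.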

Additional observations from a re-analysis of the deposited data

Results flagged for a closer look

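Among 78 genes of the lists and the 8 genes described, 6 had a pBIC library that stood apart from the other 5, its gap to the nearest, as a share of the range of the 6 libraries, exceeding Dixon's critical value for 6. Gap and range were taken on the log2 CPM scale, with a prior count of 2, and the values below are linear CPM, on which the gap is a smaller share of the range for a library that is lowest. Chance gives such a gap in about 1 in 20 groups. The groups of 3 libraries were not examined in this way. Mfng, the Fringe enzyme gene, was lowest in pBIC 6 at 48.3 CPM, and the other 5 pBIC libraries had 66.0 to 78.9 CPM. Dtx4 was lowest in pBIC 4 at 3.66 CPM, where the others had 5.60 to 6.25 CPM. Numbl, a relative of the Notch inhibitor Numb, was lowest in the same library at 0.412 CPM, where the others had 2.24 to 3.01 CPM. The coactivator Maml2 was lowest in pBIC 3 at 1.88 CPM, where the others had 12.6 to 35.9 CPM. Notch4 was lowest in pBIC 2 at 0.303 CPM, where the others had 0.879 to 1.29 CPM. Aph1c, a subunit of gamma-secretase, was listed at 0 CPM in pBIC 1, where the others had 0.221 to 0.615 CPM.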

How the results depend on the processing

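Over the log2 fold changes of the 8 genes, alternatives other than leaving out a library kept direction and call 152 times, gained a call 10 times, lost one 7 times and changed sign 15 times. With each library left out in turn the numbers were 248, 4, 20 and 16. Each sign change concerned a value that was not called. The calls of Cd9, of Dtx1 in both pBIC comparisons and of Hes1 in pBIC against YC held in every fit, and the cause of the changes below was not tested unless stated.

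In BIC against YC, where 1576 genes were called, DESeq2 called 3032, a fit of only these 2 groups 4602 and a fit with a term for Xist expression 1019. Of the 8 genes, 2 were called in the main fit, 1 with no expression filter and 4 in the fit of only these 2 groups. Leaving out 1 library gave 1422 to 4134 calls in pBIC against BIC, 1904 to 4376 in pBIC against YC and 563 to 1867 in BIC against YC, and 2 to 3, 3 to 4 and 1 to 2 calls among the 8 genes. Called pathway genes in pBIC against BIC numbered 9, but 14 with DESeq2, 5 with no filter and 3 with only these 2 groups. In pBIC against YC they numbered 17, but 11 with only these groups, with the Xist term or with only the Y-linked libraries, and in BIC against YC 4, but 13 with only these groups, where marginal zone calls were 8 and not 4. Of the calls in pBIC against YC, 43.1% were upward with voom, and 53.7% with edgeR.

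Hes1 in BIC against YC lost its call with no filter (adjusted p = 0.0885) and with the Xist term (0.189). Notch2 in pBIC against YC lost its call with no filter (0.0573), only these groups (0.071), the Xist term (0.152) and the Y-linked libraries only (0.216). Notch2 in pBIC against BIC was called by DESeq2 (adjusted p = 0.0333) and voom (0.0494). Cd1d1 in BIC against YC was called by DESeq2 (0.0171), with only these groups (0.035) and with the Xist term, where it was 4.34 (0.0362). In pBIC against BIC it was called with the Xist term (-2.43, 0.0375) and in libraries with Xist only (-2.64, 0.0408), and in pBIC against YC in the Y-linked libraries only (2.24, 0.0161). The comparisons by sex-linked transcripts were chosen after seeing the data.

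Signs changed as follows. Mfng in pBIC against BIC was -0.0103 with DESeq2's size factors, -0.0103 with DESeq2 and -0.0382 with no filter. Notch2 in BIC against YC was 0.00412 with voom, 0.0168 with no filter, 0.00706 with only these groups and 0.0304 with the Xist term. With that term Mfng was -0.0254 and Rbpj -0.27 in BIC against YC, Rbpj -0.13 in pBIC against YC, and Rbpj 0.14 and Notch1 -0.0478 in pBIC against BIC. Among libraries with Xist only, pBIC against BIC gave -0.036 for Notch1 and 0.22 for Rbpj. Leaving out 1 library gave -0.15 to 0.22 for Notch2 in BIC against YC. In pBIC against BIC it gave -0.12 to 0.11 for Mfng, -0.27 to 0.16 for Rbpj and -0.84 to 0.40 for Hes1, and in pBIC against YC -0.0036 to 0.34 for Rbpj.

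Same-numbered libraries did not deviate together (correlations from -0.0948 to 0.155), and differently numbered ones ran from -0.302 to 0.228. Such values cannot show whether the numbers pair the mice. With the replicate block, 2424, 3144 and 1725 genes were called in pBIC against BIC, pBIC against YC and BIC against YC, and 2, 3 and 3 of the 8 genes. In that fit Notch2 in pBIC against YC had an adjusted p of 0.0672, Cd1d1 in BIC against YC 0.0392, and Rbpj in pBIC against BIC was 0.0752. Of 15 marginal zone genes, 2 were called lower and 1 higher in pBIC against BIC with the block, where the main fit called 6 lower. DESeq2 gave no adjusted p for 193 genes.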

Other observations

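B-1 cells, a long-lived B cell population of the body cavities and spleen, share surface molecules such as CD9 with marginal zone cells, and their genes are given here beside Cd9. Of 7 B-1 genes, 3 fell and 0 rose in pBIC against BIC, 2 rose and 0 fell in pBIC against YC, and 6 rose and 0 fell in BIC against YC, by edgeR. Of all tested genes, 8.78% fell in pBIC against BIC, 11.8% rose in pBIC against YC and 3.90% rose in BIC against YC. In BIC against YC, 3 of the 6 calls held whichever single library was left out; without YC 2, without YC 3 or with a term for Xist expression, Spn, Itgam and Plscr1 were not called, leaving 3. The counts of 0 were also 0 at an unadjusted p under 0.05 and by DESeq2 or voom. The genes named here were chosen after their values were seen. Cd5, also in the list, overlapped between the groups and was called in no comparison. It had 3.03 to 17.0 CPM in pBIC, 3.20 to 28.4 CPM in BIC and 2.68 to 4.80 CPM in YC. Bhlhe41, a transcription factor of B-1 cells, averaged 190 CPM in pBIC, 259 CPM in BIC and 54.5 CPM in YC. It rose in pBIC against YC (1.80 ± 0.31, edgeR adjusted p = 0.00217; 0.0625 with only the libraries with Y-linked transcripts) and in BIC against YC (2.25 ± 0.34, edgeR adjusted p = 0.00372). Spn, which encodes CD43, averaged 68.7 CPM in pBIC, 332 CPM in BIC and 56.8 CPM in YC. It fell in pBIC against BIC (-2.27 ± 0.42, edgeR adjusted p = 0.00411). Itgam, which encodes CD11b and is also a myeloid gene, fell in pBIC against BIC (-2.29 ± 0.43, edgeR adjusted p = 0.00436). Ackr3, a scavenging chemokine receptor reported on mouse marginal zone B cells, had 3.36 to 230 CPM in pBIC, 27.7 to 103 CPM in BIC and 1.54 to 7.50 CPM in YC. The libraries pBIC 6 and BIC 3 held the highest level of their groups for both Ackr3 and Cd1d1.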
